A study of Rattus norvegicus with 12 samples.

Results

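The genes described here are 30 listed markers of meninges, fibroblasts and blood vessels, measured in primary cultures of rat hippocampal neurons. They were matched to array probes through the transcript accession of each probe, and a gene with several probes was read from the brightest. Of the 30 genes, 27 had such a probe and 26 were bright enough to be tested, out of 21117 genes or unnamed targets in all. Col4a2, Col6a1 and Foxc1 had no probe matched in this way and have no value here. The list was drawn up with the values of these arrays known, and its genes were chosen on their log2 signals by replicate number, many of them high on the third replicate of every group. That pattern is therefore described below without a test, and the tests concern treatment and time.

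Cells were taken from the hippocampus of Wistar embryos at embryonic day 18 and kept for 14 to 15 days in vitro. Blocked cultures received GYKI-52466 at 50 µM, an antagonist of AMPA-type glutamate receptors, together with MK-801 at 10 µM, which blocks NMDA receptors, for 9 h or for 26 h. Untreated cultures received neither agent and were collected at the same times, so that the 4 groups were untreated 9 h, blocked 9 h, untreated 26 h and blocked 26 h, with 3 arrays of 3 independent cultures each. The question behind the design is how transcripts change when excitatory input is shut off for a long time. Each value below is the log2 of the processed signal of a probe minus the 75th percentile of its array, so that 1 unit is a doubling and a negative value lies under that percentile. Probes differ in brightness, so the levels of different genes are not compared.

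The meninges are the sheets that wrap the brain, and a dissected hippocampus can carry some of them along with choroid plexus and small vessels. Their fibroblasts secrete collagens and small proteoglycans, make retinoic acid and insulin-like growth factor 2, and produce prostaglandin D synthase, while the choroid plexus epithelium is the main brain source of transthyretin. Endothelial cells line the vessels and carry receptors for vascular endothelial growth factors, and mural cells, the pericytes and smooth muscle around them, carry contractile proteins and the receptor for platelet-derived growth factor B.

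Per array, 77.6% to 86.8% of spots that are no controls were well above background. There were 6 slides and 2 scan days: the untreated 9 h group shared day 1 with the blocked 26 h group, and the other two groups shared day 2. A blockade difference at 1 time therefore compares arrays of different days, whereas in the mean of the 2 times every day and slide counts equally on both sides. Within a day each slide held arrays of 1 replicate number, so slide and replicate number cannot be told apart there. The labelled cell type was present: 5 neuronal markers, Rbfox3, Map2, Tubb3, Snap25 and Syt1, were well above background on all 12 arrays. The RNA is from whole cultures, so fewer cells of a type and less RNA per cell cannot be told apart. Markers of astrocytes, microglia and the oligodendrocyte lineage were also above background on all 12 arrays (Gfap, Aqp4 and Slc1a3; Aif1, Cx3cr1 and C1qa; Olig2, Sox10 and Mbp).

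Promoter sequences are shown for 4 genes whose values carry the main patterns: Ptgds and Igf2, whose variance lay almost wholly between replicate numbers, Col1a2 for the fibrillar collagens, and Kdr, the gene lowered by blockade. They are the 250 bases before the gene start in RefSeq on build GRCr8, printed 5′ to 3′ on the strand of the gene, and capitals mark matches to 4 common promoter motifs. Ptgds lies on the minus strand at chr3:28682979-28683228, Igf2 on the minus strand at chr1:207253981-207254230, Col1a2 on the plus strand at chr4:33518307-33518556 and Kdr on the plus strand at chr14:32571813-32572062.
Ptgds: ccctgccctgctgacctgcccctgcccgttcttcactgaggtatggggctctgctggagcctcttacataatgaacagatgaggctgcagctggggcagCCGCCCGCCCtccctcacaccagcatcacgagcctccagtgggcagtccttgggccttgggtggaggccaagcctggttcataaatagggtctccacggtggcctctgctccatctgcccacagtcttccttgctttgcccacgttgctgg
Igf2: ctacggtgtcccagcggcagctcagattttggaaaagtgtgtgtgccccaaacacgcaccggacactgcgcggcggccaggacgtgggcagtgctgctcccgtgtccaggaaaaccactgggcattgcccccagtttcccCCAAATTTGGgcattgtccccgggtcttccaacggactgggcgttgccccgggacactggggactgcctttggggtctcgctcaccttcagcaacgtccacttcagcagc
Col1a2: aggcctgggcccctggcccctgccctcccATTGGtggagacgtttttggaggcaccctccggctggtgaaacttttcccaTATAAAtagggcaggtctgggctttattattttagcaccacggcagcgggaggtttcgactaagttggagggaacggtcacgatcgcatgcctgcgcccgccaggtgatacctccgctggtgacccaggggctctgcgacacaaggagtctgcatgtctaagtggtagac
Kdr: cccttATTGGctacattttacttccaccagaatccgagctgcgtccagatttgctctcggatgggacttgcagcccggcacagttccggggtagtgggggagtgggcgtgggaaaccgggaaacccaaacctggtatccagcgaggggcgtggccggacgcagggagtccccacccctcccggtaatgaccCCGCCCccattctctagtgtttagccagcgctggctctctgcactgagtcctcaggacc

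The search covered 300 bases, from 250 before to 50 after the gene start, on both strands. The GC box (GGGCGG), the site of Sp-family factors, occurred in 15 of the 23 marker genes with a sequence and in 33.1% of 33469 RefSeq promoters of the same length. In Ptgds it occurred at 2 overlapping positions, -151 to -146 and -147 to -142, both on the opposite strand, counted from the gene start. The CCAAT box (CCAAT) was present in 10 of the 23 and in 37.5% of all promoters, among them Col1a2 at -221 to -217 and Kdr at -245 to -241, and the TATA box (TATAAA) in 6 of the 23 and in 14.2%, among them Col1a2 at -170 to -165. The CArG box, the binding site of serum response factor, was rarer: 1.64% of all promoters held it and 1 of the 23, Igf2 at -110 to -101. An AP-1 site (TGANTCA) was found in 7.33% of all promoters and in 1 of the 23, Col6a1. These are matches of letters and not measured sites. Col1a1, Col3a1, Dcn, Fn1, Pdgfrb, Pecam1 and Tagln are named only.

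Ptgds, prostaglandin D synthase and a classic product of the leptomeninges, was high on the arrays of replicate 3 and low on all others. In untreated cultures it read -6.72, -6.03 and 0.16 on replicates 1, 2 and 3 at 9 h and -6.60, -5.47 and 0.65 at 26 h. In blocked cultures it read -5.98, -5.82 and 0.79 at 9 h and -6.85, -5.78 and 0.66 at 26 h. The third replicate stood far above the other two in each of the 4 groups, and none of those 4 arrays overlapped with the remaining 8. The difference between replicate 3 and the mean of replicates 1 and 2 was 6.53 to 6.98 log2, with a median of 6.69, or 103-fold, which was the largest such median of 20706 genes ranked. The replicate number held 99.3% of the variance of Ptgds over the 12 arrays, and the 4 groups held 0.384%.

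Ttr, transthyretin, the thyroid hormone and retinol carrier of cerebrospinal fluid, ranked 2. In untreated cultures it read -0.43, 0.58 and 4.36 at 9 h and -0.60, 0.75 and 3.85 at 26 h, in the order of replicates 1, 2 and 3. In blocked cultures it read -1.07, 0.064 and 4.37 at 9 h and -0.25, 1.01 and 4.10 at 26 h. Replicate 1 was the lowest and replicate 3 the highest in every group, with a median difference of 4.03 log2, or 16.3-fold. The spot was saturated on replicate 3 of the untreated 9 h and of the blocked 26 h group, so the true difference there may be larger.

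Igf2, insulin-like growth factor 2, a growth factor of meningeal and choroid tissue in the brain, showed the same order. It read -2.75, -1.95 and 0.20 in untreated 9 h, -3.40, -2.28 and 0.48 in blocked 9 h, -3.34, -2.46 and 0.19 in untreated 26 h and -3.41, -1.96 and 0.13 in blocked 26 h cultures. The 4 replicate 3 arrays lay together at 0.13 to 0.48, and the highest of the other 8 arrays was at -1.95. Its median difference was 2.95 log2, or 7.72-fold, and the replicate number held 97.9% of its variance.

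Gjb2, connexin 26, a gap junction protein of the meninges, Aldh1a2, the enzyme that makes retinoic acid there, and Ogn, the small proteoglycan osteoglycin, differed as much, by medians of 3.37, 3.12 and 3.01 log2. In contrast to Ptgds, these 3 genes also differed widely between replicates 1 and 2, by medians of 2.07, 2.89 and 2.44 log2 against 0.88 log2 for Ptgds. Aldh1a2 read -6.72, -4.37 and -3.64 in untreated 9 h, -8.67, -4.83 and -3.66 in blocked 9 h, -6.73, -3.96 and -2.20 in untreated 26 h and -6.74, -3.74 and -2.05 in blocked 26 h cultures. The array at -8.67 was not well above background. The replicate numbers kept 1 order in every group, so that these genes formed 3 steps rather than 1 high set and 2 low ones.

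The remaining genes of the meningeal and choroid set were less divided. Anxa1, annexin A1, a phospholipid-binding protein, was higher on replicate 3 by 0.71 to 1.28 log2 in the 3 groups that could be read, and its value on replicate 3 of the blocked 26 h group was dropped for an outlier flag. Igfbp2, a binding protein of insulin-like growth factors, differed by 0.27 to 0.44 log2 and was saturated on replicate 3 of the blocked 26 h group. Crabp2, which carries retinoic acid in the cytoplasm, differed by -0.12 to 0.20 log2, so that replicate 3 was the highest in 1 group only.

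The collagens moved with the replicate number by different amounts. Col1a1, Col3a1 and Col1a2, chains of the main fibres of connective tissue, were higher on replicate 3 by medians of 2.28, 2.13 and 2.08 log2, or 4.87-fold, 4.38-fold and 4.23-fold. Col4a1, of the network collagen in basement membranes, and Col5a1, which regulates fibril width, were higher by 0.78 and 0.75 log2. Col1a1 read -1.16, 0.42 and 1.55 in untreated 9 h, -2.58, 0.13 and 1.29 in blocked 9 h, -1.44, 0.041 and 1.57 in untreated 26 h and -1.78, 0.86 and 1.84 in blocked 26 h cultures. Replicate 1 was again lowest and replicate 3 highest in every group, and replicate 2 exceeded replicate 1 by a median of 2.11 log2. A second probe of Col1a1 gave a median difference of 1.73 log2 and that of Col4a1 one of 1.16 log2, against 2.28 and 0.78 log2 for the brightest probes.

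The proteoglycans and glycoproteins of the matrix did not share 1 pattern. Fn1, fibronectin, and Fmod, fibromodulin, were higher on replicate 3 in all 4 groups, by medians of 1.23 and 1.14 log2. Dcn, decorin, and Lum, lumican, small proteoglycans that bind collagen fibrils and accompany it in most fibroblasts, differed by medians of -0.12 and 0.14 log2, and replicate 3 was the highest in none of the groups. Dcn read -1.79, -2.02 and -1.995 in untreated 9 h, -2.01, -1.84 and -2.08 in blocked 9 h, -1.09, -1.71 and -1.88 in untreated 26 h and -2.01, -2.55 and -2.35 in blocked 26 h cultures. Its 4 replicate 3 arrays lay among the others, with replicate 1 the highest in 3 of the groups. Vtn, vitronectin, an adhesive glycoprotein made by pericytes in brain, differed by a median of 0.085 log2. Postn, periostin, was high on replicate 3 at 9 h by 0.97 and 0.99 log2 and not at 26 h, where the differences were -0.43 and -0.20 log2, and 2 of its arrays were not well above background.

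Vascular genes divided in the same way. Among mural genes, Tagln, the smooth muscle actin-binding protein transgelin, and Pdgfrb, the receptor for platelet-derived growth factor B, were higher on replicate 3 by medians of 1.77 and 1.17 log2, whereas Acta2, smooth muscle actin, differed by 0.15 log2 and only 2.34% of its variance went with the replicate number. Among endothelial genes Flt1, a receptor for vascular endothelial growth factor A, was higher by a median of 1.00 log2, with 3 arrays of replicates 1 and 2 not well above background. Kdr, the main signalling receptor for that factor, and Pecam1, an adhesion protein of endothelial junctions, had median differences of -0.38 and -0.39 log2, and replicate 3 was the highest array in none of the groups. Cldn5, a tight junction protein of brain endothelium, was well above background on 4 of the 12 arrays, replicates 2 and 3 of both untreated groups. Other defining markers of the vessel wall gave a mixed account: Cdh5 was well above background on all 12 arrays, and the pericyte markers Abcc9 on 9 arrays and Rgs5 on 1 array.

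**Figure D1:**
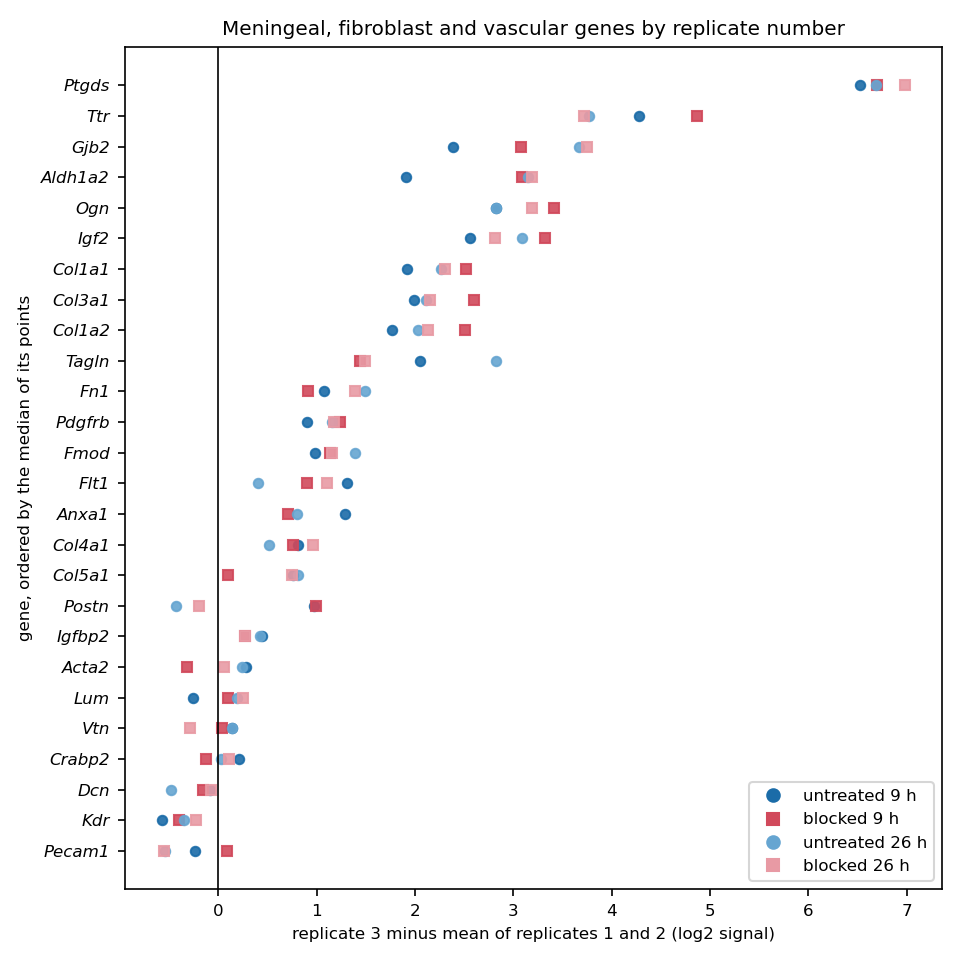
Difference between replicate 3 and the mean of replicates 1 and 2 on the x axis, in log2 signal, for the 26 tested marker genes, ordered by median. Each point is 1 of the 4 groups (circles, untreated; squares, blocked). Ptgds stands at 6.53 to 6.98 log2, while Kdr lies below 0 in all 4 groups.

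Over the marker genes with values on all 12 arrays, 25 in number, replicate 3 was the highest array in all 4 groups for 17, against 22% of all genes. All 4 replicate 3 arrays lay above all 8 other arrays for 12 of the 25, against 5.52% of all genes, and replicate 3 exceeded the mean of the other two by at least 1 log2 in every group for 10, against 0.985%. Replicate 1 was lowest and replicate 3 highest in all groups for 12 of the 25, against 8.17% of all genes. The median difference was 1.14 log2 over the 25 genes and 0.099 log2 over all genes. Since these values chose the list, the shares describe it and nothing is read from them.

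Likeness to the mean of Ptgds, Col1a1 and Igf2 was measured as the correlation over the 12 arrays after removal of the group means. The 12 arrays share 3 replicate numbers, so a high value says mainly that a gene kept the order of the numbers, and no p is attached. Among the other marker genes Ttr had the highest value (0.99), then Gjb2 (0.96), and Kdr the lowest (-0.81). Outside the list the 12 nearest named genes, at 0.986 to 0.996, were Gstm2, Itm2a, Capn1, Mmp23, Cd1d1, Nr1h3, Dynlrb2, Bmp6, Sostdc1, Slc1a5, Vegfc and Plaat3. Among them, Bmp6 is a bone morphogenetic protein of meningeal fibroblasts and Sostdc1 an inhibitor of such proteins expressed in choroid plexus, with median differences of 1.81 and 3.13 log2 on replicate 3.

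Lists of further genes, also chosen with earlier results of these data known, were read in the same way. Replicate 3 was the highest in all 4 groups for 22% of all genes, and nothing is read from the counts. Of 26 other meningeal fibroblast genes, replicate 3 was the highest in all 4 groups for 19, with a median difference of 0.87 log2, led by Gjb6 (connexin 30, also an astrocyte gene) at 3.24 log2 and Slc6a13, a GABA transporter of the meninges, at 2.68 log2. For 46 other fibroblast and matrix genes the count was 30 and the median 0.68 log2, led by Ccn2 at 2.92 and Col8a1 at 2.70 log2. For 16 other endothelial genes the count was 3 and the median 0.19 log2, with Eng, an endothelial coreceptor for TGF-beta, at 1.96 log2, and for 12 other mural genes 5 and 0.38 log2, with Tpm2, a tropomyosin, at 3.74 log2.

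Markers of other cell types were read on the same arrays, again beside the 22% of all genes that were highest on replicate 3 in all groups. Of 13 choroid plexus genes, replicate 3 was the highest in all groups for 6, with a median of 0.67 log2, Folr1 was higher by 1.73 log2, Kcnj13 was well above background on all 4 replicate 3 arrays and on 3 of the other 8 arrays, and Kl was well above background on none. The summed linear signal of the choroid plexus list, relative to the 75th percentile, was 1.40 to 2.45 over replicates 1 and 2 and 1.73 to 2.28 on replicate 3. That list leaves out Ttr, which is counted among the marker genes. The same sum over the meningeal and choroid markers, Ttr among them, was 14.97 to 23.8 over replicates 1 and 2 and 40.15 to 45.64 on replicate 3. Medians were 0.24 log2 for 15 astrocyte genes, 0.24 log2 for 13 microglial genes, 0.37 log2 for 16 genes of the oligodendrocyte lineage, with Mbp at 1.68 log2, and 0.48 log2 for 18 proliferation genes. Of 19 neuronal genes none was highest on replicate 3 in all groups, and their median was -0.082 log2. The part of these cell types in the pattern of the marker genes was not tested.

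**Figure D2:**
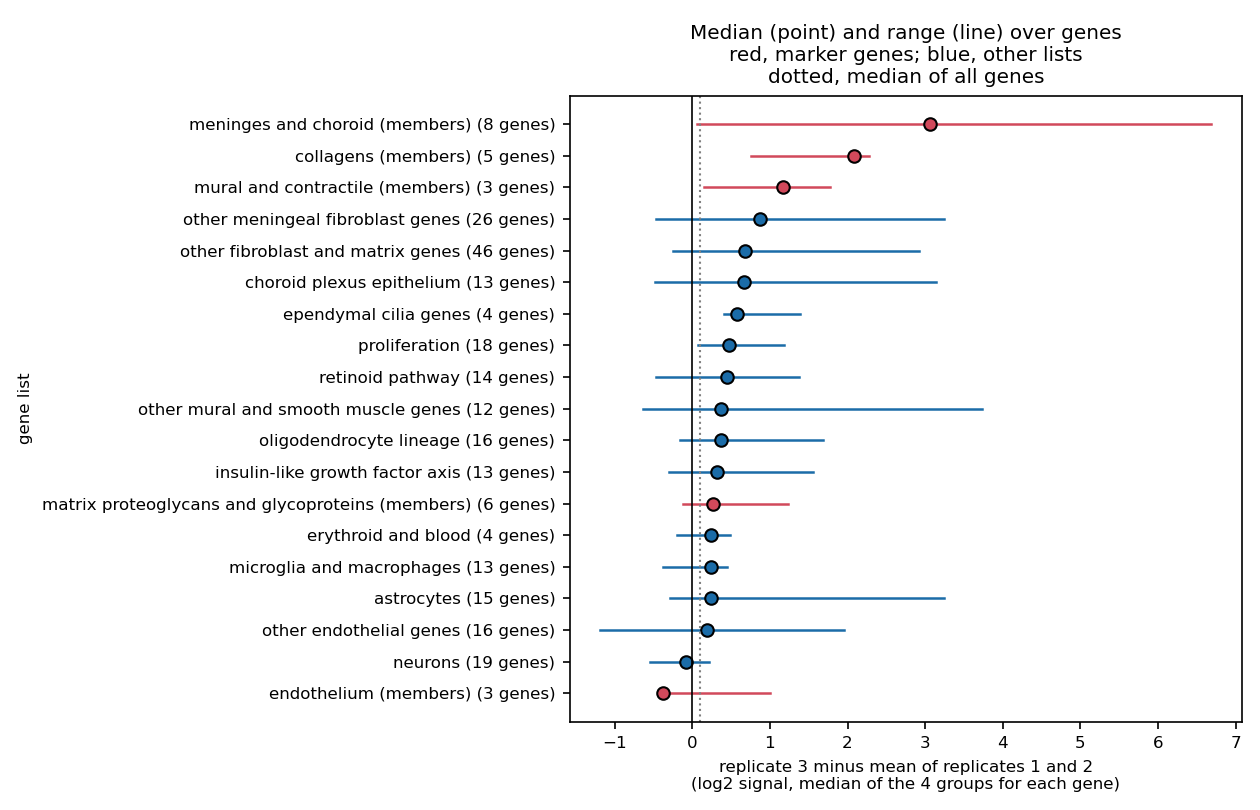
Replicate 3 minus the mean of replicates 1 and 2 on the x axis, in log2 signal, for the marker genes by role (red) and other gene lists (blue). Points are medians over genes and lines run from the lowest to the highest gene. The meningeal and choroid markers, Ttr among them, lie at a median of 3.06 log2, the neuronal list at -0.082 log2 and the dotted line, all genes, at 0.099 log2.

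In the mean of both times the marker genes passed about as often as genes in general, and the single times are given below. Many of these genes varied widely between replicate numbers, which limits what this fit can call. Averaged over both times, blockade changed 1 of the 26 tested genes at an adjusted p under 0.05 (limma, Benjamini-Hochberg over all genes), Kdr, where 4.5% of all genes passed. Another 4 had an unadjusted p under 0.05, and 22 of the 26 differences were negative. No share over all genes was taken for these counts, and many of the genes move together with the replicate number. Nothing is read from them. The median difference was -0.18 log2 over the marker genes and -0.022 log2 over all genes.

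Kdr fell. It read -1.23, -1.14 and -1.76 in untreated and -2.29, -2.16 and -2.62 in blocked cultures at 9 h, and -1.67, -1.64 and -2.01 in untreated and -2.14, -1.95 and -2.27 in blocked cultures at 26 h. At 9 h the blocked arrays all lay below the untreated ones, and at 26 h the groups overlapped by 1 blocked array. The average difference was -0.66 ± 0.13 log2 (SE, 12 arrays), a 1.58-fold fall, with an adjusted p of 0.0207 in limma, and the blocked array was the lower one in 6 of 6 same-numbered pairs. It was -0.74 log2 between the groups scanned on day 1 and -0.58 log2 between those scanned on day 2, each of which also differ in time. The adjusted p in limma was 0.0076 to 0.0618 over fits without 1 array, and it passed the threshold in 8 of those 12. The call was lost without replicate 2 of untreated 9 h, replicate 2 of untreated 26 h, replicate 1 of blocked 26 h or replicate 3 of blocked 26 h. It was also lost with the median of the array in place of its 75th percentile (adjusted p = 0.0629 in limma, -0.65 log2), in the deposited matrix (0.0934, -0.62 log2) and without all arrays of replicate 1 or 2 (0.21 and 0.338). Of all genes 1.94% passed without replicate 1 and 0.17% without replicate 2, so those losses say little about Kdr itself. Without all arrays of replicate 3 the difference was -0.71 log2 (adjusted p = 0.0222 in limma). Kdr was again the 1 gene of the list called there, where 1.7% of all genes passed.

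The markers that followed the replicate number could hardly be read in this fit, because cultures of a group differed so much. The 95% interval of the average difference of Ptgds ran from -4.43 to 4.77 log2 and that of Ttr from -2.98 to 2.89 log2. Same-numbered untreated and blocked arrays deviated together (correlation across all genes 0.172 to 0.658 over 6 pairs), so the replicate number was also fitted as a block. With it, 4 of the 26 genes passed, where 13.3% of all genes did. Tagln, Lum and Kdr fell and Pecam1 rose, and with the block the SE of Ptgds dropped from 1.99 to 0.13 log2, its difference being 0.17 log2 (adjusted p = 0.447 in limma).

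Tagln had the largest difference of the list. It read -3.29, -2.76 and -0.98 in untreated and -4.36, -3.30 and -2.39 in blocked cultures at 9 h, and -3.62, -2.53 and -0.25 in untreated and -4.25, -3.85 and -2.56 in blocked cultures at 26 h. The groups overlapped at both times, yet the blocked array was lower in 6 of 6 pairs, with differences of -2.31 to -0.54 log2. The average was -1.21 ± 0.64 log2 (SE), or 2.32-fold, with an adjusted p of 0.394 in limma, and with the block the SE was 0.20 log2 and the adjusted p 0.00656. Without all 4 arrays of replicate 3, a fit added after the values were seen, the blocked difference was -0.89 ± 0.15 log2 (SE), with an adjusted p of 0.0434 in limma. Kdr and Tagln were the 2 genes of the list called in that fit, where 2.64% of all genes passed.

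Lum differed by -0.45 ± 0.18 log2 (SE), with an adjusted p of 0.221 in limma and 0.0213 with the block, and was lower in 6 of 6 pairs. With the block and without the replicate 3 arrays its adjusted p was 0.107 in limma. Pecam1 differed by 0.49 ± 0.16 log2 (SE), with an adjusted p of 0.129 in limma and 0.0473 with the block, and was higher in 5 of 6 pairs, with the arrays of 1 of these nearly equal. Its blocked call was lost without the replicate 3 arrays (adjusted p = 0.26 in limma), and with another background correction (normexp) its difference was 0.15 log2.

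**Figure D3:**
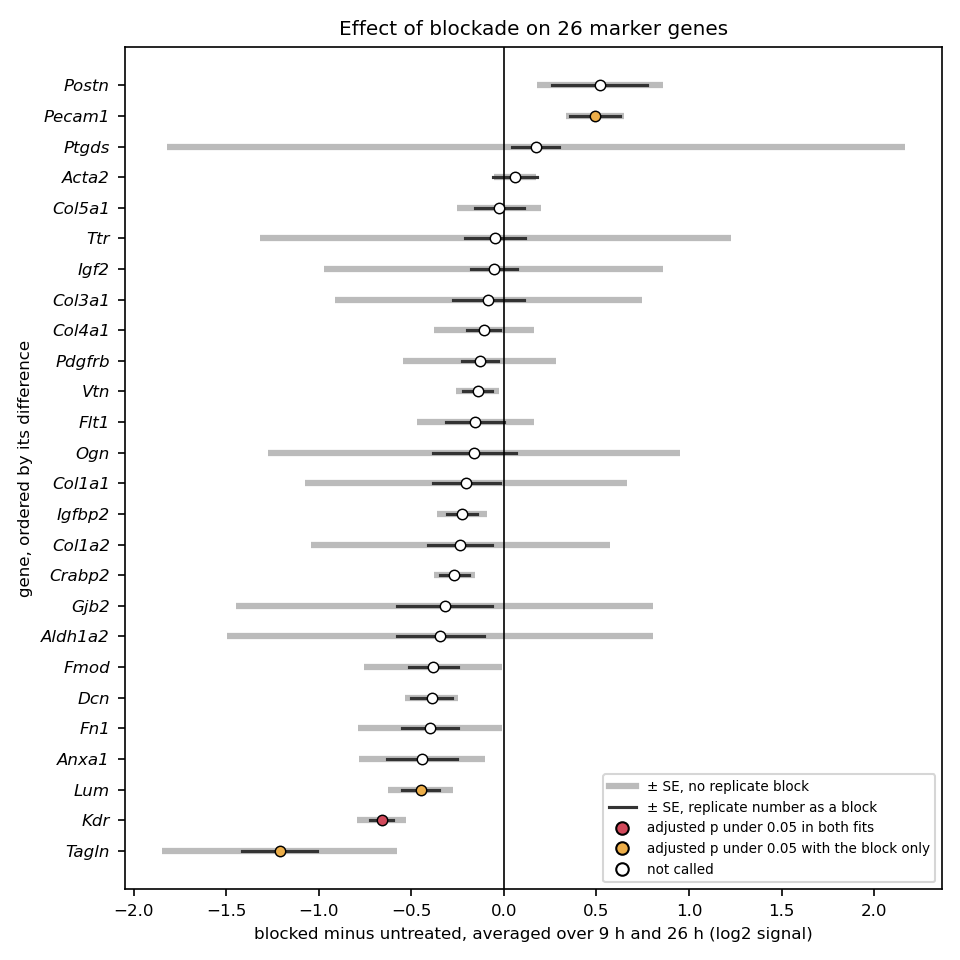
Blocked minus untreated signal averaged over 9 h and 26 h on the x axis, in log2, for the 26 marker genes. Wide grey bars give ± SE without and thin black bars ± SE with the replicate number as a block. Kdr (-0.66 log2, red) is called in both fits, and Tagln, Lum and Pecam1 (orange) with the block only.

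At 9 h, blockade changed 2 of the 26 genes, where 21.2% of all genes passed. Kdr fell by 0.98 ± 0.19 log2 (SE, 3 against 3 arrays, limma adjusted p = 0.00614) and kept its call when any 1 array was left out. It lost the call without all arrays of replicate 1 or of replicate 2, where 12.2% and 0% of all genes passed. No gene at all passed without replicate 2, so that loss says nothing about Kdr itself. Without all arrays of replicate 3 Kdr was the only gene of the list called, where 8.33% of all genes passed. Crabp2 read -0.90, -1.41 and -0.95 in untreated and -1.31, -1.76 and -1.66 in blocked cultures, with 1 untreated array among the blocked ones. It fell by 0.49 ± 0.15 log2 (SE; limma adjusted p = 0.0483), and that call held in 2 of the 12 fits without 1 array, those without replicate 2 of untreated 9 h or replicate 1 of blocked 9 h (adjusted p 0.017 to 0.162 in limma over the 12). It was also lost with the array median (0.0652), the deposited matrix (0.101), array weights (0.0702), the mean of probes and no filter on dim probes, and without all arrays of any 1 replicate number (0.0951 to 0.316 in limma). With the replicate block 7 genes passed, where 36.1% of all genes did. Besides these 2, Tagln (-1.01 log2), Col1a2 (-0.88 log2), Fn1 (-0.84 log2) and Col4a1 (-0.48 log2) fell and Vtn (0.42 log2) rose. Without the block their adjusted p-values in limma were 0.488, 0.648, 0.325, 0.429 and 0.0955. Without all replicate 3 arrays the blocked fit called none of these 5. Of the list it called Kdr and Ttr, where 13.8% of all genes passed. Without the block and without replicate 1 of blocked 9 h the difference of Col1a2 was 0.17 log2, with the sign turned.

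Cldn5 was too dim for the main fit and is given only as an approximate fold at 9 h. It read -7.66, -7.11 and -6.90 in untreated 9 h cultures, where 2 of 3 arrays were well above background, and -8.77, -9.50 and -9.33 in blocked ones, where none was. Each blocked array was set to its lowest signal well above background, or to the own signal of the probe where higher. Against these values the untreated mean was 2.7-fold higher at 9 h. That mean takes in the untreated array not well above background, so 2.7-fold is no strict bound. The untreated and blocked groups were also scanned on different days. At 26 h, again 2 untreated arrays and no blocked one were well above background, and no fold can be given.

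At 26 h, blockade changed 3 of the 26 genes, where 16.5% of all genes passed. Pecam1 rose and Dcn and Vtn fell. Pecam1 read -6.82, -6.28 and -7.09 in untreated and -5.63, -5.39 and -6.06 in blocked cultures, without overlap, and rose by 1.04 ± 0.22 log2 (SE; limma adjusted p = 0.0130). This call was lost without replicate 2 of blocked 26 h (adjusted p = 0.0557 in limma). It was also lost with the normexp correction (0.25 log2, adjusted p = 0.174 in limma) and with quantile normalization (0.0769). The call was lost too without all arrays of replicate 1, 2 or 3 (0.113, 0.163 and 0.0669 in limma). Of all genes 9.63%, 0.0947% and 2.3% passed in those fits, so the losses there say little about Pecam1 itself.

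Dcn, with the values given above, lay lower on every blocked than on any untreated array at 26 h and fell by 0.74 ± 0.20 log2 (SE; limma adjusted p = 0.0341). Vtn read -5.34, -5.09 and -5.08 in untreated and -6.03, -5.53 and -6.07 in blocked cultures, also without overlap, and fell by 0.70 ± 0.16 log2 (SE; limma adjusted p = 0.0176). Dcn lost its call without replicate 1 or 2 of untreated 26 h or replicate 2 or 3 of blocked 26 h, with adjusted p-values of 0.031 to 0.123 in limma over all 12 fits without 1 array. It was also lost with the array median (adjusted p = 0.0952 in limma), quantile normalization (0.0702), the deposited matrix (0.0859) and no filter on dim probes, and without all arrays of replicate 2 (0.336) or 3 (0.123). Vtn lost it without replicate 2 or 3 of untreated 26 h or replicate 1 or 3 of blocked 26 h, with 0.0131 to 0.0721 in limma over the 12. Its call was also lost without all arrays of replicate 1, 2 or 3 (0.0593, 0.174 and 0.20 in limma). Of all genes 9.63%, 0.0947% and 2.3% passed without replicate 1, 2 or 3. With the replicate block 6 genes passed, where 32.1% of all genes did: Tagln (-1.42 log2), Lum (-0.62 log2) and Kdr (-0.34 log2) fell besides these 3. Their adjusted p-values without the block were 0.319, 0.116 and 0.248 in limma, and without all replicate 3 arrays the blocked fit called none of the 26 (limma; 5% of all genes passed).

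**Figure D4:**
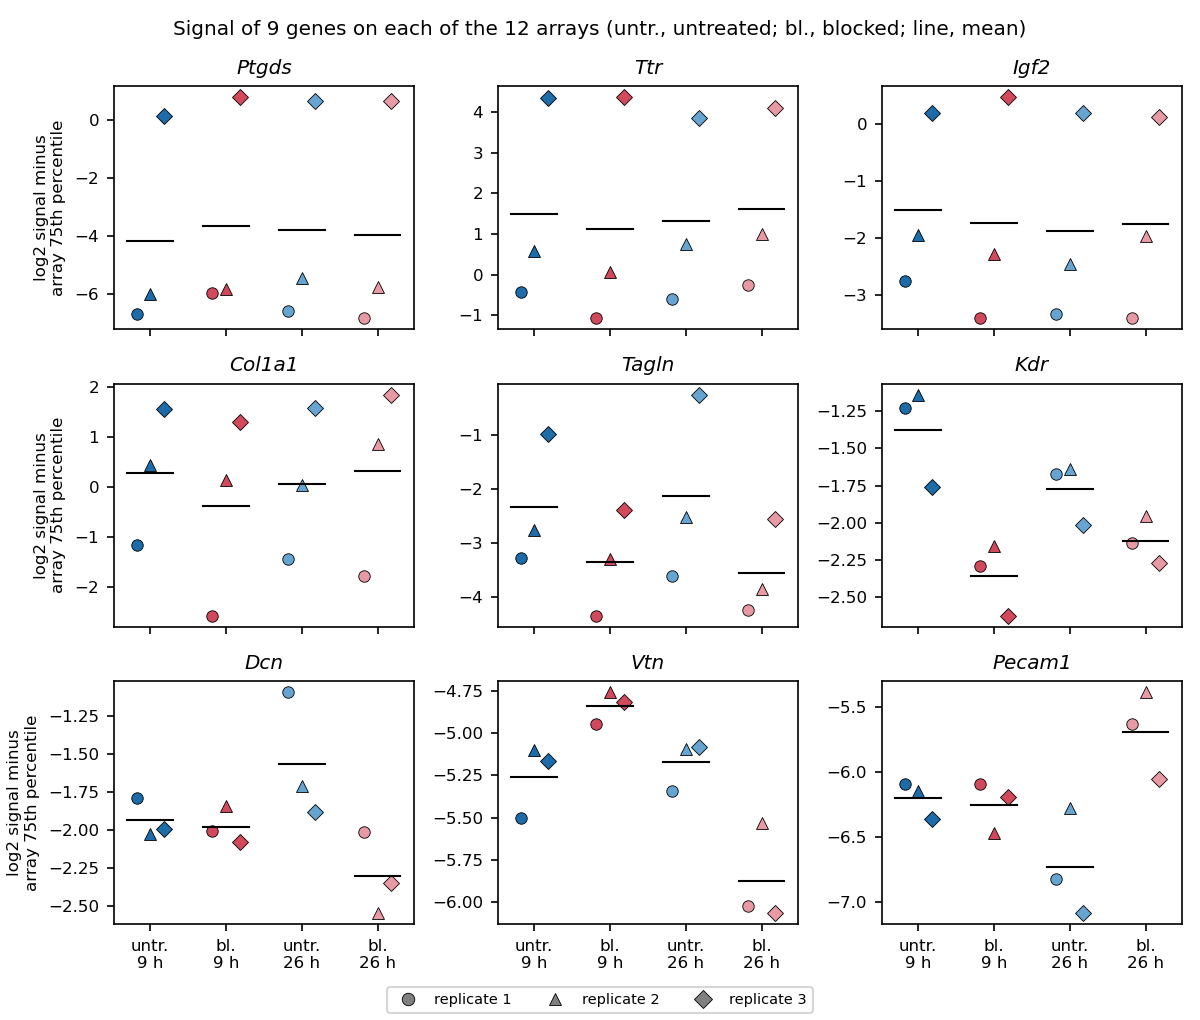
Signal of 9 marker genes on each of the 12 arrays on the y axis, as log2 minus the 75th percentile of the array, by group. Circles, triangles and diamonds are replicates 1, 2 and 3, and lines are group means (n = 3). In Ptgds, Ttr and Igf2 the diamonds stand apart from all other arrays, and in Kdr the blocked arrays at 9 h lie below all untreated ones at 9 h.

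The effect of blockade differed between the times for 3 of the 26 genes, where 28.8% of all genes passed. The difference of effects, 26 h minus 9 h, was -1.12 ± 0.23 log2 (SE) for Vtn, 1.09 ± 0.32 log2 for Pecam1 and -0.71 ± 0.23 log2 for Acta2, with adjusted p-values of 0.00522, 0.0262 and 0.0409 in limma. Vtn was higher in 3 of 3 blocked arrays of same-numbered pairs at 9 h, by 0.34 to 0.56 log2, and lower in 3 of 3 at 26 h. Acta2 read -3.52, -3.59 and -3.27 in untreated and -2.98, -2.90 and -3.26 in blocked cultures at 9 h, and -2.97, -3.25 and -2.87 against -3.58, -3.10 and -3.28 at 26 h. Its blocked arrays all lay above the untreated ones at 9 h, and the groups overlapped at 26 h. The scan day changes sign along with this contrast, so a difference between times and a difference between days cannot be told apart. For Vtn both groups of day 2, blocked 9 h and untreated 26 h, were higher than both groups of day 1 in their means (-4.84 and -5.17 against -5.26 and -5.88 log2). With the replicate block 10 genes passed, where 44.6% of all genes did. Without the arrays of replicate 3 and without the block none did (Vtn adjusted p = 0.0752 in limma), where 14.6% of all genes passed.

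**Figure D5:**
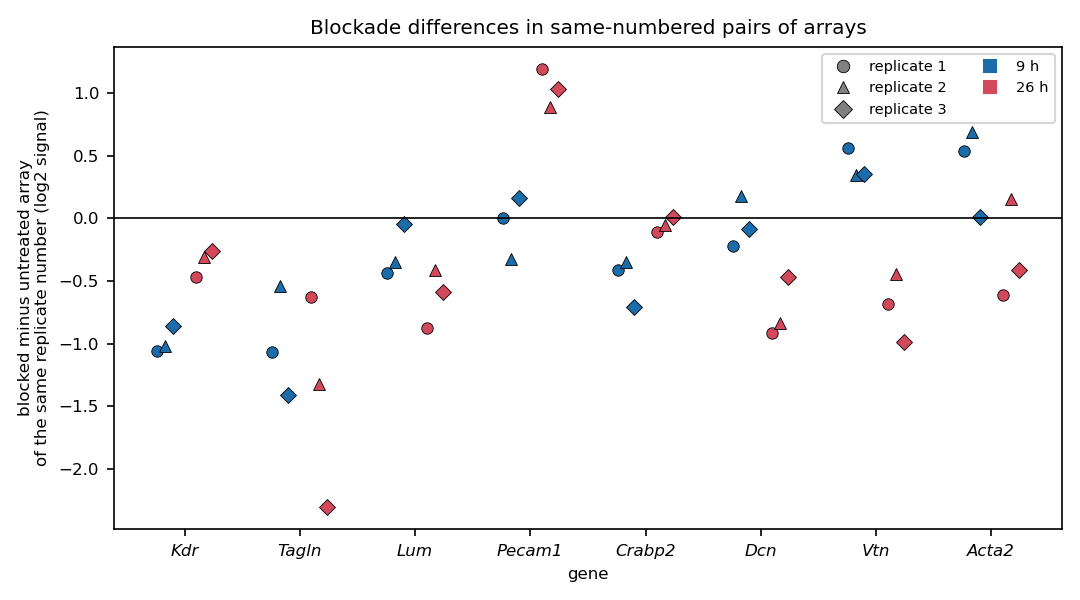
Blocked minus untreated array of the same replicate number on the y axis, in log2 signal, for 8 marker genes with a call in at least 1 comparison, 3 pairs at 9 h (blue) and 3 at 26 h (red). Kdr, Tagln and Lum lie below 0 in 6 of 6 pairs, and Vtn lies above 0 at 9 h and below 0 at 26 h.

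Time in culture changed 2 of the 26 genes when averaged over untreated and blocked cultures, a contrast that is balanced over scan days, where 12.7% of all genes passed. Crabp2 fell from 9 h to 26 h by 0.55 ± 0.11 log2 (SE, 12 arrays; limma adjusted p = 0.0105). All 6 of its 26 h arrays, at -1.98 to -1.80, lay below all 6 of its 9 h arrays, at -1.76 to -0.90. Averaged in the same way Vtn fell by 0.48 ± 0.11 log2 (SE; limma adjusted p = 0.0238). Its mean went from -4.84 to -5.88 in blocked cultures and from -5.26 to -5.17 in untreated ones. Within each treatment the times were scanned on different days, so time and day cannot be told apart in these changes. The call for Vtn is described next. It held in 5 of 12 fits without 1 array (adjusted p 0.0108 to 0.0577 in limma). It was lost without replicates 2 or 3 of untreated 9 h, 2 or 3 of blocked 9 h, 1 of untreated 26 h, or 1 or 3 of blocked 26 h, and with quantile normalization (0.0649) or normexp (0.0902). Without all arrays of replicate 1, 2 or 3 neither gene passed (adjusted p = 0.088, 0.0824 and 0.137 for Crabp2 and 0.0842, 0.126 and 0.231 for Vtn in limma). Of all genes 5.03%, 0.777% and 1.76% passed in those fits. The median over the marker genes was 0.012 log2 and over all genes -0.015 log2. With the replicate block 5 of the 26 passed, where 26.9% of all genes did.

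Related genes were read in the same comparison, blockade averaged over both times, where 4.5% of all genes passed. A list with 1 gene called lies near that share, and nothing is read from its count. Of 16 other endothelial genes 1 fell, Erg, an endothelial transcription factor (-1.37 ± 0.18 log2), and none rose, while Cdh5 differed by 0.083 ± 0.20 log2 (SE). Of 12 other mural genes Abcc9, a potassium channel subunit of pericytes, rose (1.22 ± 0.22 log2) and Cspg4 (NG2), a proteoglycan shared with oligodendrocyte precursors, fell (-0.52 ± 0.12 log2). Abcc9 was dim, at -8.81 to -6.065 log2, and was well above background on 9 arrays only. Of 26 other meningeal fibroblast genes Rdh10, which makes the retinaldehyde that Aldh1a2 oxidises, fell (-0.58 ± 0.076 log2), and of 48 other fibroblast and matrix genes none passed in this fit.

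In the retinoid pathway, to which Aldh1a2 and Crabp2 belong, 4 of 14 further genes passed: Cyp26b1, which degrades retinoic acid (-2.18 ± 0.22 log2), Rdh10 and the receptor Rara (-0.44 ± 0.090 log2) fell and the receptor Rxrb rose (0.32 ± 0.072 log2). Rdh10 is the same gene as in the meningeal list above. The gene lists were chosen with earlier results of these data known, so nothing is read from this count. In the insulin-like growth factor axis, to which Igf2 and Igfbp2 belong, 1 of 13 passed, Igf1 (-0.70 ± 0.14 log2), a fall. Igf2 itself differed by -0.056 ± 0.92 log2 (SE; limma adjusted p = 0.989), and by the same amount with an SE of 0.12 log2 under the block (limma adjusted p = 0.817). Of 13 choroid plexus genes 1 rose, Calml4 (0.62 ± 0.091 log2), and Ttr differed by -0.047 log2 (95% interval -2.98 to 2.89 log2).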

How the data were processed

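Scanner output of 12 single-colour arrays was used. It holds, per the file headers, the output of Agilent Feature Extraction (version 10.5.1.1), whose processed signal is a background-subtracted, detrended intensity. A deposited matrix of the authors has log2 values, equal to the processed signal minus a constant per array (medians 7.57 to 7.75; the rule is not stated), used as an alternative. From the intensities, log2 minus the array's 75th percentile of 42877 non-control spots was taken, 5671 outlier-flagged values were dropped, and a probe was kept if some group had it well above background on every array and each group had 2 or more unflagged values (23853 of 30367). Genes were named through RefSeq transcripts (18004 probes matched). All 12 arrays entered 1 limma 3.58.1 fit under R 4.3.3, with a mean per group, two-sided tests and Benjamini-Hochberg adjustment over 21117 targets at 0.05. The fit without a block was run on simulated data with known blockade changes, read for the average of both times. That simulation held no replicate effect, and the fit with the block was not tested.

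The marker genes and all gene lists were chosen with earlier results of these data known. Named are all 30 marker genes, up to 4 genes per other list that passed for the average effect, and the 12 most alike; further genes led their list and were picked by value. The labels call replicates independent cultures and do not say that numbers pair them. The pairing was taken from the correlations of same-numbered arrays, 0.172 to 0.658, all over 0.1 for blockade. The number of arrays limits the precision.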

Additional observations from a re-analysis of the deposited data

Results flagged for a closer look

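For 3 marker genes the effect of blockade differed between 26 h and 9 h by the test of the difference itself, at an adjusted p under 0.05 in limma: Vtn (-1.12 log2), Pecam1 (1.09 log2) and Acta2 (-0.71 log2). The contrast runs along with the scan day, and time and day cannot be told apart. Over the 12 fits without 1 array, Vtn passed in 12 (limma adjusted p 0.00269 to 0.0165), Pecam1 in 5 (0.0102 to 0.0636 in limma) and Acta2 in 4 (0.0312 to 0.0923 in limma). Pecam1 differed by 0.19 log2 with the normexp correction and by 0.96 log2 after quantile normalization, not past the threshold in either (limma adjusted p = 0.436 and 0.201). Acta2 did not pass with the array median or after quantile normalization (limma adjusted p = 0.0665 and 0.0901).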

How the results depend on the processing

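Counts of marker genes called moved by over 1.5 times under several settings. With the replicate block 4 passed for the average blockade effect (1 without), 7 at 9 h (2), 6 at 26 h (3), 5 for time (2) and 10 for the difference between times (3). The shares of all genes in those fits are given above. With the slide as a block 3 passed for the average and 5 for time, where 10.9% and 24.7% of all genes did. For time the numbers pair the samples less clearly (lowest correlation -0.03), and the block added a fall of Anxa1 and rises of Aldh1a2 and Igfbp2. With array weights the average had 3, 26 h had 9 and the difference 6, where 16%, 47.8% and 46% of all genes passed. The array median gave 0 for the average and 1 at 9 h, where 3.43% and 19.4% of all genes passed. The deposited matrix gave 0 and 1 (3.58% and 19.5% of all genes), and the mean of probes 1 at 9 h (19.9%). No filter on dim probes gave 2 for the average (2.71%), 1 of them Cldn5, which was at background in blocked cultures. Quantile normalization gave 1 at 26 h, 1 for time and 1 for the difference, and normexp 1 for time. Without 1 array or 1 replicate number the counts ran from 0 to 1 for the average, 0 to 2 at 9 h, 0 to 3 at 26 h, 0 to 2 for time and 0 to 4 for the difference. The shares of all genes were 0.17% to 4.69%, 0% to 22%, 0.0947% to 19.8%, 0.777% to 12.1% and 0.0142% to 29.3%. The replicate block without the third replicates, chosen after seeing the data, gave 2, 2, 0, 0 and 5 in the same order. Of all genes 2.64%, 13.8%, 5%, 3.94% and 21.8% passed there. The median difference of replicate 3 was 1.02 log2 with the array median, 1.00 with quantile normalization, 0.96 with normexp and 0.97 in the deposited matrix, against 1.14. The effects called without the block kept their sign under the settings run. Of those called with the block only, Col1a2 at 9 h turned from -0.88 to 0.17 log2 without replicate 1 of blocked 9 h and without the block. Leaving out a whole replicate number leaves 2 arrays a group and 4 residual degrees of freedom. Without replicate 2, 0% to 0.777% of all genes passed in these comparisons, so a call lost there says little about a single gene.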
